A study of Homo sapiens with 42 samples.

Results

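Small RNA with repaired ends was compared between 3 libraries of the THP-1 group labelled A7 and 3 libraries labelled mock. The 6 libraries were taken by their column names from a series of 42 samples, of which 30 have columns in the count table. The labels give A7 as THP-1, a human monocytic leukaemia line, and mock as HEK293T, a human embryonic kidney line given 200 nM of a control antisense oligonucleotide (ASO). The series knocked out POLR3G and POLR3GL, the alternative forms of 1 RNA polymerase III subunit, in THP-1, but the labels say neither which of these genes A7 lacks nor whether A7 is a single clone. Neither gene has a row in the table, so the target could not be checked. The THP-1 libraries A4, E4 and G8 are used below for reference, and 12 further samples (con, and HEK293T with the POLR3G ASO) are not analysed here. The comparison therefore crosses labelled cell lines, and the effects of knockout, transfection and cell line cannot be told apart.

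All 6 RNA samples were treated with Antarctic phosphatase and polynucleotide kinase (PNK) before library preparation with a NEBNext small RNA kit. These enzymes leave a 5′ phosphate and a 3′ hydroxyl, the ends that adapter ligation needs. Dicer products such as miRNAs carry them already, whereas many fragments of tRNA, rRNA and mRNA do not, so end repair brings such fragments into the library. The mirVana PARIS enrichment for small RNA is described in the labels for THP-1. RNA polymerase III transcribes tRNA, 5S rRNA, U6, 7SK, 7SL, Y, vault and snaR RNAs and the RNA subunits of RNase P and RNase MRP. Most C/D box snoRNAs, which guide 2′-O-methylation, are processed from introns of polymerase II transcripts, and miRNAs are cut from polymerase II transcripts by Drosha and Dicer.

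The table holds raw counts per annotated row on GRCh38. Rows that do not overlap were kept, short structured RNAs first, leaving 85934 of 175946 rows. The kept rows held 7509924, 6889089 and 7076691 counts in A7 libraries 1, 2 and 3 and 6676824, 7661593 and 6495283 in mock libraries 1, 2 and 3. Counts ignored strand, since a row on the opposite strand had at least the count of the small RNA it contains in 523 of 523 cases. Near-identical copies shared reads, so the level of any 1 copy among tRNAs, snaR RNAs or pseudogenes is uncertain. Mock library 1 stood apart from mock libraries 2 and 3, with a chi-square per feature of 97.6 and 90.5 against 7.48 between libraries 2 and 3. The A7 pairs had 16.9 to 29.6. Nothing says that the libraries of a group came from separate cultures, so p-values measure only the spread between libraries.

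The labelled cell types were checked on marker miRNAs. The 8 listed haematopoietic miRNAs, MIR142 and MIR223 among them, summed to 277 to 515 CPM in A7 (counts scaled to library size with TMM factors) and 76.5 to 78.0 in mock. Without PNK the sums were 8548 to 10576 in A7 and 5273 to 7677 in mock, and MIR142 had 2683 ± 553 against 2643 ± 821 CPM (SD, n = 3 each). The lymphocyte miRNA MIR150 was at 0 in both groups, and MIR144 and MIR451A were at 0 in mock with PNK. The libraries labelled HEK293T thus held haematopoietic miRNAs, and the identity of the cells in them is treated as open. Epithelial miRNAs summed to 1.93 to 3.38 CPM in A7 and 0 to 0.483 in mock, with MIR205 and MIR203A at 0 in both. Fibroblast miRNAs summed to 1.37 to 3.80 against 0.138 to 0.925 CPM, and neural miRNAs to 28.01 to 57.1 against 10.0 to 15.7. All 4 marker sums were thus higher in A7 with PNK, as was the whole miRNA family, and their part in the results below was not tested. In bulk samples, fewer cells of a type and less RNA per cell cannot be told apart.

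The sequences of the members on which the results turn are shown first. The 4 C/D box snoRNAs below are 3 that the naming rule chose and SNORD101, chosen after its values were seen. Letters are from GENCODE 29, 5′ to 3′, and capitals mark the C box letters TGATGA within the first 20 bases and the D box letters CTGA within the last 15.
SNORD64: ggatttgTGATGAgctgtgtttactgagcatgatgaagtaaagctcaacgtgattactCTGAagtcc
SNORD49A: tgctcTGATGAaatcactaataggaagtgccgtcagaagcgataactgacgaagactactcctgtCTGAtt
SNORD63: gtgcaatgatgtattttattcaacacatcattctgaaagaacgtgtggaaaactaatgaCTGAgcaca
SNORD101: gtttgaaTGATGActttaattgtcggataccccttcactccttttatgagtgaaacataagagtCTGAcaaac
SNORD63 has no TGATGA in the window searched. Both sets of letters were found in 109 of 166 tested C/D snoRNAs with a GENCODE sequence (65.7%) and in 30 of 45 that were called higher in A7 (66.7%).

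For miRNAs, a called row can be tied to an arm only where both arms also have rows of their own, which was so for 8 of 63 called rows. Of these, 6 carry the let-7 seed, the bases 2 to 8 that pair with target mRNAs, shown in capitals in the RefSeq mature sequences (GRCh38.p14).
hsa-let-7a-5p: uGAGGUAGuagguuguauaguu
hsa-let-7b-5p: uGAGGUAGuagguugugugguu
hsa-let-7d-5p: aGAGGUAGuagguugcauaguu
hsa-let-7f-5p: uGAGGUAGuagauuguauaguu
hsa-let-7i-5p: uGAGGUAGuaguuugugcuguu
hsa-miR-98-5p: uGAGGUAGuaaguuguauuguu
These 5p arms held 83.8% (let-7d) to 99.5% (let-7b) of the counts of both arms. MIR155, the miRNA row with the largest rise under the naming rule, merges precursor and mature entries, so its arm is not settled and both are shown. The positions of the MIR155 row are those of the 3p arm. MIR92A1 and MIR92A2 give the same 3p product.
hsa-miR-155-5p: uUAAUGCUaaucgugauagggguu
hsa-miR-155-3p: cUCCUACAuauuagcauuaaca
hsa-miR-92a-3p: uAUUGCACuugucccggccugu

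Short structured RNAs made up most of the rises in A7 and few of the falls. Of 9075 features tested with edgeR's quasi-likelihood test (Benjamini-Hochberg adjusted p under 0.05), 313 were higher in A7 (3.45%) and 149 lower (1.64%), 462 in all (5.09%). The RNA families held 208 of the 313 rises and 8 of the 149 falls, although they held only 1350 of the features tested. The median log2 fold change over all features was 0.019. All 3 A7 libraries lay above all 3 mock libraries for 1251 features (13.8%) and below for 969 (10.7%). Of the 462 calls, 102 held when each of the 6 libraries was left out in turn, and 146 features were called without A7 library 1, 301 without A7 library 3, 163 without mock library 2 and 156 without mock library 3. Directions in this comparison depend on the scaling: with library totals in place of TMM, all features shifted by -0.22 and 120 were called higher and 165 lower. With factors from miRNAs alone the shift was -0.80, and 60 were called higher and 2790 lower.

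Of 23 family sums, 4 were called, each higher in A7. C/D box snoRNAs took 19.7%, 12.9% and 14.7% of counts in A7 libraries 1, 2 and 3 and 11.5%, 6.07% and 6.05% in mock. The groups did not overlap, and the log2 fold change was 1.19 (SE 0.338, edgeR adjusted p = 0.0227). MicroRNAs took 0.870%, 0.528% and 0.574% in A7 and 0.324%, 0.300% and 0.273% in mock, again with no overlap, a log2 fold change of 1.36 (SE 0.310, edgeR adjusted p = 0.0177). For 7SK, the RNA that holds the elongation factor P-TEFb inactive, shares were 0.606%, 0.711% and 0.566% against 0.392%, 0.460% and 0.478%. Its log2 fold change was 0.72 (SE 0.187, edgeR adjusted p = 0.0227), turning to -0.074 under miRNA factors. The snaR RNAs, primate-specific polymerase III transcripts, were scarce, at 0.0135%, 0.00569% and 0.00776% in A7 and 0.00365%, 0.0032% and 0.00365% in mock. A7 library 1 was highest and the groups did not overlap, with a log2 fold change of 1.60 (SE 0.444, edgeR adjusted p = 0.0227). None of the 4 sums was called without A7 library 1, mock library 2 or mock library 3, where adjusted p lay between 0.0715 and 0.163, nor was 7SK without A7 library 2 (0.0608). Under miRNA factors none of the 4 was called, with C/D snoRNA at 0.35 (0.464) and snaR at 0.67 (0.314).

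The other 19 family sums did not pass, although the shares of some did not overlap between groups either. Y RNA, Y RNA pseudogenes and RPPH1 had higher shares in each A7 library than in any mock library. The 18S, 28S and 5.8S rRNAs, U6 pseudogenes, 7SK pseudogenes and U6atac had lower shares. The 18S, 28S and 5.8S rRNAs, the largest family, took 43.5%, 50.9% and 48.5% of counts in A7 and 52.5%, 60.3% and 61.6% in mock, so that each A7 library had the lower share. After TMM scaling their log2 fold change was -0.074 (edgeR adjusted p = 0.634), and with library totals it was -0.29 (0.0308). Nuclear tRNA had 13.2%, 11.7% and 10.4% in A7 and 12.8%, 7.47% and 7.06% in mock. Mock library 1 lay inside the A7 range, and the difference was 0.56 (SE 0.301, edgeR adjusted p = 0.197), and it was called without mock library 1 (0.0222). The vault RNA sum, most of it VTRNA2-1 (nc886), was also split among the mock libraries. It took 0.939%, 0.875% and 0.740% in A7 and 1.23%, 0.534% and 0.457% in mock, where library 1 lay above every A7 library. Its difference of 0.38 did not pass (edgeR adjusted p = 0.493) and was called without mock library 1 (0.0295). Mitochondrial rRNA and tRNA sums, at 0.13 and 0.12, and U6, at -0.089, were among the smallest differences.

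**Figure D1:**
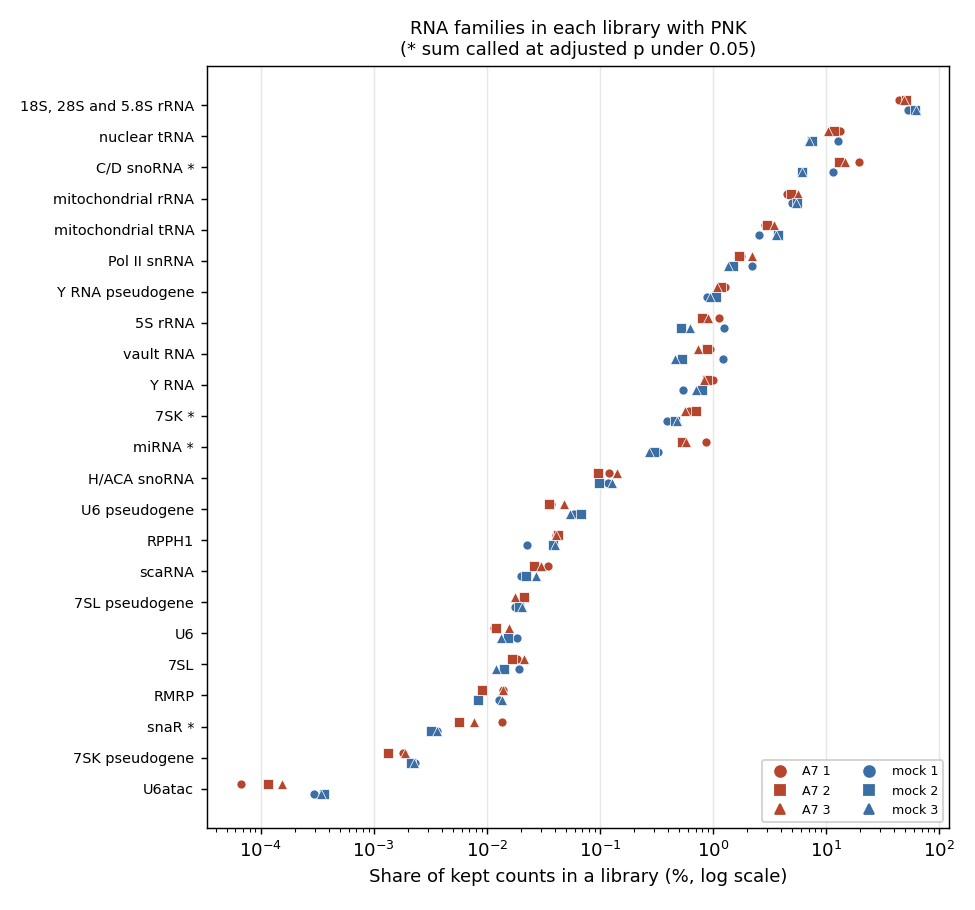
Share of kept counts (%, log scale) held by each RNA family in the 3 A7 and the 3 mock libraries with PNK, 1 point per library, with an asterisk on the 4 sums called. C/D snoRNA, miRNA, 7SK and snaR show no overlap between groups in these shares (the fold change of 7SK turns to -0.074 under miRNA factors). The same holds for families whose sums were not called: Y RNA, Y RNA pseudogenes, RPPH1, 18S, 28S and 5.8S rRNA, U6 pseudogenes, 7SK pseudogenes and U6atac. Mock library 1 lies apart from the other 2 in C/D snoRNA, nuclear tRNA and vault RNA.

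C/D box snoRNAs rose as single features and not only as a sum. Of 203 tested, 54 were higher in A7 and 0 lower, with a median log2 fold change of 0.74, and 180 lay above 0. The groups did not overlap upward for 75 and downward for 6. H/ACA snoRNAs, which guide pseudouridylation, gave 0 calls among 94 with a median of 0.34. The scaRNAs, which guide modification of spliceosomal RNA in Cajal bodies, gave 2 rises among 21, SCARNA11 (0.96) and SCARNA9 (0.92). SNORD49A (chr17:16440036-16440106, plus strand, in the host transcript LRRC75A-AS1) was the called snoRNA with most counts, at 45843, 30840 and 20032 CPM in A7 and 13760, 8129 and 7608 in mock. All A7 libraries were above all mock libraries, by 1.71 (SE 0.388, edgeR adjusted p = 0.0163), a call lost without A7 library 1, mock library 2 or mock library 3.

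SNORD64 is an orphan snoRNA of the imprinted Prader-Willi region (chr15:24985100-24985166, plus strand, in an intron of SNHG14). It had 260, 148 and 198 CPM in A7 and 50.003, 30.02 and 25.5 in mock, the largest rise of a snoRNA under the naming rule. Its log2 fold change of 2.52 (SE 0.308, edgeR adjusted p = 0.000255) was called without any 1 library, the highest adjusted p being 0.00337. SNORD63 (chr5:138561043-138561110, minus strand, in HSPA9) had 13074, 8484 and 7303 CPM in A7 and 5187, 2905 and 2405 in mock, 1.46 higher (SE 0.350, edgeR adjusted p = 0.0215). SNORD101 (chr6:132815307-132815379) had 11991, 6750 and 7461 against 2527, 2253 and 2105 CPM, 1.93 higher (SE 0.294, edgeR adjusted p = 0.00135), a call held without any 1 library.

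Within a host gene, some snoRNAs passed and others did not. Of 10 C/D snoRNAs in GAS5, a growth-arrest gene with a snoRNA in most introns, 3 rose and all 10 lay above 0 (median 0.67). In SNHG1, 1 of 8 rose (median 0.69). The 15 rows listed for snoRNAs that act in pre-rRNA cleavage gave 0 calls, and 10 of them lay below 0. Their median was -0.46, beside 0.74 for all C/D snoRNAs and 0.34 for H/ACA snoRNAs. The list includes the H/ACA snoRNAs SNORA73A and SNORA73B. The differences between these medians were not tested.

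**Figure D2:**
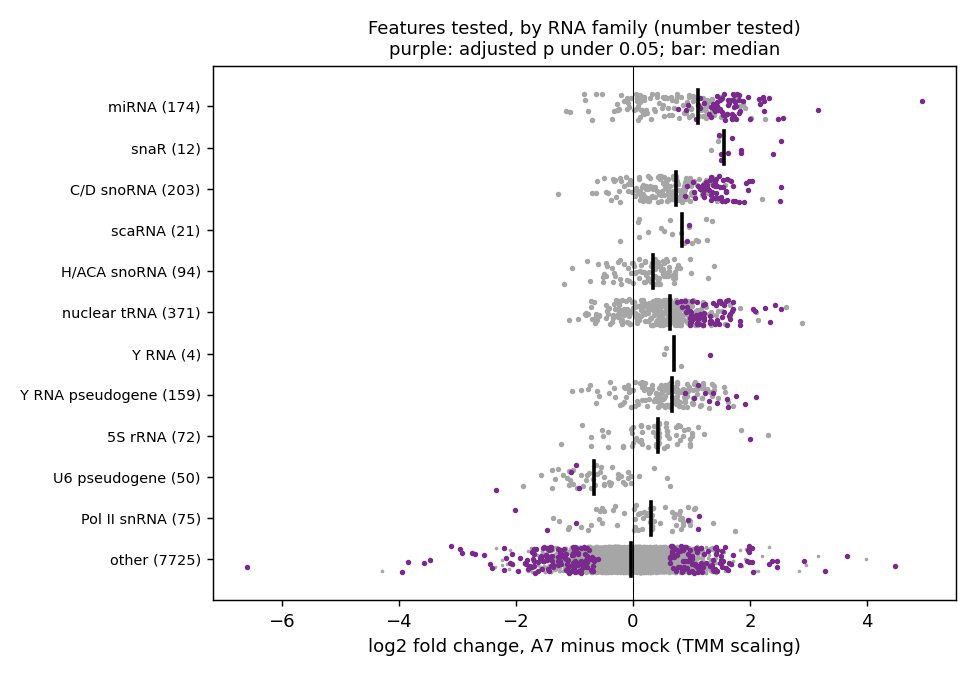
Log2 fold change (A7 minus mock, TMM scaling) of every feature tested, by RNA family, with 1 point per feature, features called in purple and the family median as a bar. Calls in miRNA, C/D snoRNA, nuclear tRNA and snaR lie to the right of 0 and those of U6 pseudogenes to the left, while rows outside the families are centred near 0 with calls on both sides.

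MicroRNAs gave the highest median of the large families. Of 174 rows tested, 63 were higher in A7 and 0 lower, with a median of 1.12. All A7 libraries were above all mock libraries for 100 rows and below for 2. The let-7 family, known for its rise as cells differentiate, had 9 of 12 rows higher and all 12 above 0, with a median of 1.61. Rises of the 6 rows with the seed printed above ran from 1.45 (MIRLET7I) to 2.22 (MIR98). MIRLET7B had 781, 382 and 328 CPM in A7 and 209, 99.3 and 94.3 in mock, with the groups apart, a difference of 1.89 (SE 0.438, edgeR adjusted p = 0.0186). Of these 6 rows only MIR98 was called without any 1 library. The calls of the other 5 were each lost without A7 library 1, mock library 2 or mock library 3, and that of MIRLET7F1 also without mock library 1.

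MIR155 (chr21:25574022-25574043, plus strand, in an exon of its host gene MIR155HG) is induced in activated monocytes and other immune cells. Its row had 416, 224 and 238 CPM in A7 and 52.1, 52.1 and 53.7 in mock. A7 library 1 was highest and the mock libraries lay close together, and the difference of 2.48 (SE 0.431, edgeR adjusted p = 0.00343) was called without any 1 library. The feedback regulators of innate signalling MIR146A and MIR146B rose by 2.24 and 1.52 and also kept their calls. MIR142, a marker of blood cells, had 47.5, 18.6 and 31.999 CPM in A7 and 13.5, 14.2 and 10.4 in mock, 1.36 higher (SE 0.298, edgeR adjusted p = 0.0136). The myeloid miRNA MIR223 had 21.98, 14.3 and 10.96 CPM against 3.87, 5.96 and 6.52, 1.52 higher (SE 0.355, edgeR adjusted p = 0.0193). Calls of MIR142 and MIR223 were both lost without A7 library 1, mock library 2 or mock library 3, and that of MIR223 also without mock library 1.

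All 5 tested haematopoietic rows rose (median 1.58), as did 6 of 8 rows listed for monocyte maturation, a list that shares members with the first. Markers of other cell types rose too, MIR200C of the epithelial list by 3.15 and MIR9-1 and MIR9-3 of the neural list by 1.69 and 1.72. MIR9-2 was tested and not called. In the miR-17-92 cluster, a growth-promoting polycistron, 4 of 6 rows rose (median 1.33), and in the related miR-106b-25 cluster 1 of 3 (median 1.02). In the miR-106a-363 cluster 1 of 2 tested rows rose, MIR92A2 (1.54), and MIR363 lay at -0.77 without a call. MIR92A1 had 829, 313 and 427 CPM against 221, 184 and 175, 1.44 higher (SE 0.381, edgeR adjusted p = 0.0354). The MIR92A2 row had 751, 290 and 415 CPM against 195, 151 and 156. Its arm is not settled, but its positions (chrX:134169583-134169604) are those of the 5p arm of this gene and not of the 3p arm printed above. Reads of the 3p product that both genes encode cannot be told apart. Under miRNA factors the median miRNA is set near 0 by construction, and the whole family sum was 0.49 higher (edgeR adjusted p = 0.167). With these factors MIR142, MIR223 and MIR342 were not called, and MIR146A was.

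**Figure D3:**
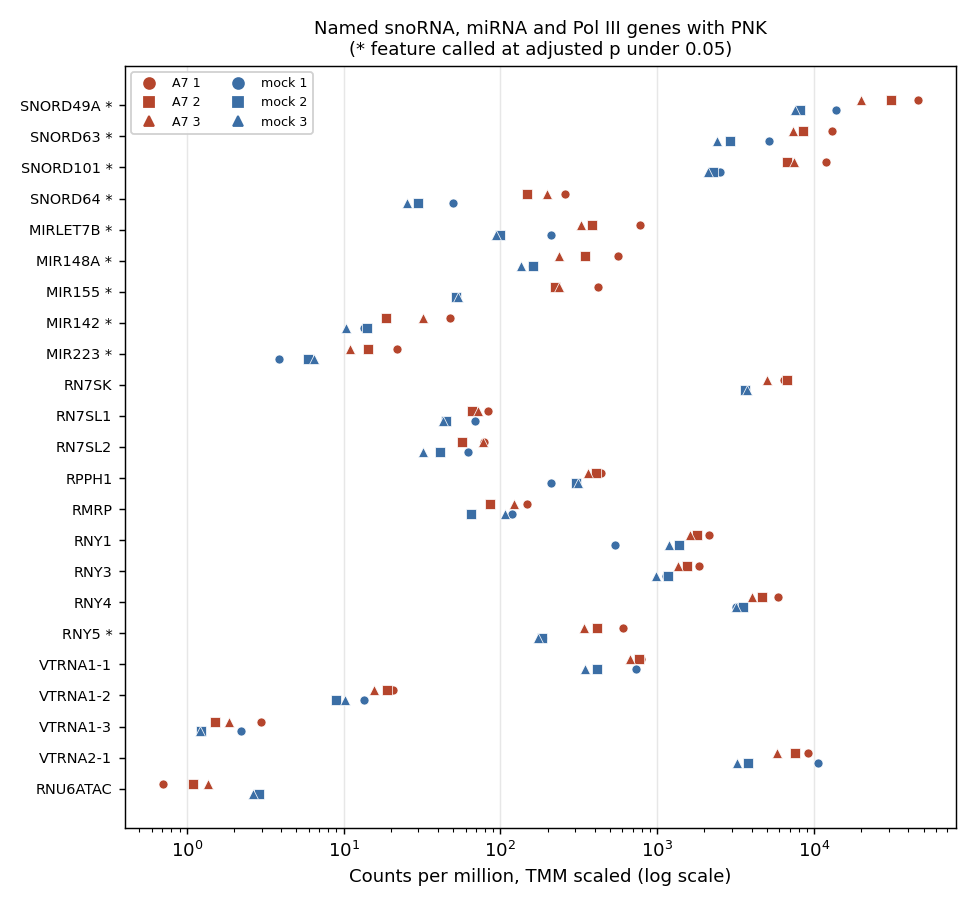
CPM (TMM scaled, log scale) of named snoRNA, miRNA and polymerase III genes in the 3 A7 and 3 mock libraries, 1 point per library, with an asterisk on those called. Groups are apart for SNORD64 (148 to 260 against 25.5 to 50.003) and MIR155 (224 to 416 against 52.1 to 53.7), and overlap for VTRNA2-1, where mock library 1 is highest.

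Nuclear tRNA rose in part. Of 371 tRNA rows tested, 63 were higher and 0 lower, with a median of 0.64, and all A7 libraries were above mock for 161 rows and below for 4. Because tRNA copies share reads, rows were also summed by anticodon: 18 of 48 sums were higher, 0 lower, and 39 lay above 0 (median 0.63). Of the 18, 6 were called with library totals and 0 with miRNA factors, under which Arg-ACG, Cys-GCA, Gly-CCC, Phe-GAA and Thr-AGT turned negative (-0.34 to -0.016).

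Tyr-GTA, which decodes tyrosine codons and is encoded by intron-bearing genes, had 428, 281 and 324 CPM in A7 and 95.0, 147 and 155 in mock. The lowest A7 library was above the highest mock library, and the difference was 1.38 (SE 0.233, edgeR adjusted p = 0.00176). Arg-CCT had 638, 391 and 368 against 246, 141 and 144 CPM, 1.40 higher (SE 0.288, edgeR adjusted p = 0.00607). Tyr-GTA and Arg-CCT were the 2 sums called without any 1 library, with an adjusted p of up to 0.0106 and 0.049. Arg-TCT, some genes of which also bear an intron, had 411, 331 and 277 against 88.0, 140 and 87.2 CPM, 1.69 higher (SE 0.415, edgeR adjusted p = 0.0126). Leu-CAA, also encoded by genes with introns, had 2603, 1906 and 1573 against 1046, 709 and 717 CPM, 1.30 higher (SE 0.293, edgeR adjusted p = 0.00902). Ile-TAT, whose genes bear introns too, had 13.1, 6.07 and 9.46 against 12.4, 9.66 and 8.93 CPM and did not pass (-0.11, edgeR adjusted p = 0.885). A link between introns and these differences was not tested.

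The anticodon sum with most counts behaved otherwise. Glu-CTC had 105388, 84466 and 64956 CPM in A7 and 92346, 37536 and 33396 in mock, where mock library 1 lay within the A7 range (0.64, SE 0.492, edgeR adjusted p = 0.296). Asp-GTC had 4436, 2703 and 3097 CPM against 9703, 2309 and 2336, with mock library 1 above all others. Its difference was -0.49 (edgeR adjusted p = 0.417), and 0.55 without mock library 1 (0.200), so 1 library sets its sign. Gly-GCC, at 2966, 2538 and 2542 against 2642, 2888 and 2709 CPM, had a difference of -0.034 (edgeR adjusted p = 0.954). Whether these anticodons differ from Tyr-GTA in their response was not tested.

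At the level of single tRNA rows, tRNA-Tyr-GTA-3-2 (chr14:20653099-20653192, minus strand) had 59.2, 37.9 and 45.2 CPM against 6.22, 11.4 and 10.4, 2.34 higher (SE 0.274, edgeR adjusted p = 0.000164). The rarer tRNA-Tyr-GTA-6-1 (chr6:26594874-26594962) and tRNA-Arg-TCT-5-2 (chr9:128340076-128340166) rose by 2.52 and 2.42, from 4 to 13 counts in each mock library to 28 to 50 in each A7 library. These 3 rows were called without any 1 library.

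Polymerase III genes outside the tRNAs showed 1 call among the 14 that the naming rule always names. RNY5, a Y RNA that binds the Ro60 protein, had 607, 412 and 340 CPM in A7 and 186, 183 and 175 in mock. The groups were apart and the difference was 1.32 (SE 0.333, edgeR adjusted p = 0.0282), lost without A7 library 1 or any 1 mock library. RNY1 had 2125, 1786 and 1614 against 538, 1380 and 1191 CPM, and RNY4 5917, 4678 and 4051 against 3171, 3530 and 3171. Both were apart between groups but did not pass (0.83 and 0.57, edgeR adjusted p = 0.186 and 0.265). RNY3 had 1854, 1547 and 1351 against 1133, 1175 and 987 CPM, also apart between groups and not called (0.53, edgeR adjusted p = 0.339).

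RN7SK had 6418, 6757 and 4988 CPM in A7 and 3619, 3626 and 3748 in mock, with the groups apart. As a single row its difference of 0.72 did not pass (SE 0.248, edgeR adjusted p = 0.113). Within the vault RNAs, VTRNA1-2 had 20.6, 18.9 and 15.7 against 13.5, 8.94 and 10.3 CPM, with the groups apart and a difference of 0.76 (edgeR adjusted p = 0.056). VTRNA2-1, known as nc886 and an inhibitor of the kinase PKR, had 9129, 7520 and 5831 CPM against 10550, 3781 and 3226, so that mock library 1 was above every A7 library (0.36, SE 0.400, edgeR adjusted p = 0.718). RNA subunits of RNase P (RPPH1) and RNase MRP (RMRP) had 435, 408 and 360 against 209, 305 and 311 CPM and 148, 86.2 and 123 against 119, 65.3 and 107. The groups were apart for RPPH1 and overlapped for RMRP, and neither passed (0.54 and 0.30, edgeR adjusted p = 0.426 and 0.759).

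RN7SL1, the RNA of the signal recognition particle, had 84.0, 65.5 and 72.5 CPM against 68.8, 45.2 and 42.9 and overlapped between groups (0.50, edgeR adjusted p = 0.725). RNU6ATAC, the minor spliceosome's counterpart of U6, was scarce, with 5 to 11 counts in A7 and 20 to 28 in mock libraries. It lay lower in each A7 library, with a difference of -1.36 that did not pass (SE 0.458, edgeR adjusted p = 0.106). Under miRNA factors RNY5 had 0.46 and the other 13 genes had -0.02 or below, so the sign depends on the scaling for all but RNY5 and RNU6ATAC.

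The snaR copies moved together, as rows that share reads. Of 12 tested, 9 were higher and 0 lower (median 1.56), and A7 lay above mock in all 12. The copy with the largest rise (chr19:47934183-47934295) had 72, 19 and 34 counts in A7 and 10, 5 and 9 in mock, a log2 fold change of 2.53 (SE 0.601, edgeR adjusted p = 0.0208). No snaR call held without each library in turn. Of 72 tested rows of 5S rRNA, a ribosomal RNA made by polymerase III, 1 was higher, the pseudogene RNA5SP490 with 9 to 19 counts in A7 and 3 to 6 in mock libraries (2.00, edgeR adjusted p = 0.0282).

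Copies of Y RNA elsewhere in the genome gave 12 rises and 0 falls among 159 tested (median 0.67). Of these, 3 were also above each of A4, E4 and G8, comparisons that share the A7 libraries. They were chosen for this after their values were seen. The copy on chromosome X (chrX:16912215-16912317, minus strand) had 127, 236 and 298 CPM in A7 and 78.2, 69.3 and 68.2 in mock. A4 had 53.2, 42.0 and 56.6, E4 42.3, 41.0 and 54.3, and G8 64.5, 56.9 and 118. Each A7 library was thus above all libraries of the other groups, and A7 was above mock by 1.62 (SE 0.306, edgeR adjusted p = 0.00642), above A4 by 2.12 (0.000357), above E4 by 2.27 (0.00559) and above G8 by 1.46 (0.00671).

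The copy on chromosome 15 (chr15:74983274-74983376, minus strand, in an intron of SCAMP5 on the opposite strand) had 50.2, 185 and 40.5 CPM in A7 and 27.8, 19.4 and 16.9 in mock. A4 had 18.1, 21.02 and 20.3, E4 21.9, 16.3 and 16.6, and G8 21.5, 20.1 and 14.5, so A7 was highest and library 2 highest within it. Its rise over mock was 2.11 (SE 0.419, edgeR adjusted p = 0.00807), lost without mock library 2 or 3. The third copy (chr11:46244159-46244273) had 31.8, 27.0 and 27.4 CPM in A7 and 18.6, 12.9 and 15.1 in mock, 0.89 higher (SE 0.233, edgeR adjusted p = 0.0330), a call lost without any 1 A7 library and without mock library 2 or 3. In A4, E4 and G8 it averaged 12.8, 10.96 and 13.04 CPM.
The summed Y RNA pseudogenes were above A4 by 0.76 (edgeR adjusted p = 0.0151), E4 by 0.84 (0.0273) and G8 by 0.94 (0.00472), and above mock by 0.53, which did not pass (0.104).

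Among spliceosomal RNAs the calls went both ways. Of 75 polymerase II snRNA rows, 3 were higher and 3 lower, beside 3.45% higher and 1.64% lower over all features tested. A U2 pseudogene row (RNU2-33P) had 17.3, 14.8 and 20.5 CPM against 8.84, 7.61 and 7.61, 1.13 higher (SE 0.216, edgeR adjusted p = 0.00657). RNVU1-6, a variant U1 gene, had 1.55, 1.24 and 0.872 CPM against 4.28, 4.11 and 6.40, 2.01 lower (log2 -2.01, SE 0.336, edgeR adjusted p = 0.00271). Both groups were apart in each case, and both calls held without any 1 library. U6 pseudogenes gave 4 falls among 50 tested and 0 rises, with a median of -0.67 and all A7 libraries below mock for 21. RNU6-29P had 6.91, 7.17 and 10.8 CPM against 15.5, 18.2 and 15.5, a log2 fold change of -0.98 (SE 0.254, edgeR adjusted p = 0.0325), lost without A7 library 1, A7 library 2 or any 1 mock library.

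One row annotated as mir-720 (chr15:88538579-88538687, in an intron of DET1) had 13.8, 29.8 and 16.4 CPM in A7 and 2.35, 1.64 and 2.17 in mock. A7 library 2 was highest and the groups were far apart, with a difference of 3.29 (SE 0.656, edgeR adjusted p = 0.00807), lost without mock library 2 (0.0599).

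Outside the RNA families, 105 of 7725 rows were higher and 141 lower. Most are long non-coding annotations, and most of those named below lie over or in coding genes. Without strand, reads from a gene and its antisense row cannot be told apart. A row opposite an exon of AXL, a receptor tyrosine kinase (lnc-TGFB1-6, chr19:41260417-41262385), had 16.3, 18.6 and 17.4 CPM against 1.52, 0.206 and 0.724, 4.48 higher (SE 0.358, edgeR adjusted p = 1.77e-06). A row over an exon of CKAP4, an endoplasmic reticulum protein (lnc-NUAK1-5, chr12:106238036-106238871), had 46.4, 48.7 and 41.5 against 2.90, 4.11 and 3.62, 3.67 higher (SE 0.291, edgeR adjusted p = 1.77e-06). The A7 libraries were close to each other and far above mock in both.

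Falls were found over other coding genes. A row opposite an exon of VIM, the intermediate filament vimentin (lnc-TRDMT1-5, chr10:17233325-17234764), had 1, 4 and 4 counts in A7 and 33, 70 and 61 in mock (log2 -3.94, SE 0.350, edgeR adjusted p = 6.12e-06). Rows over S100A8, a calcium-binding protein of neutrophils and monocytes (lnc-S100A12-2), and over DROSHA, the nuclease that starts miRNA processing (lnc-GOLPH3-6), were also lower. The S100A8 row had 4.37, 2.48 and 1.74 CPM against 7.87, 11.2 and 8.69 (log2 -1.71, SE 0.315, edgeR adjusted p = 0.00559). The DROSHA row had 3.10, 2.76 and 3.36 CPM against 8.56, 11.3 and 9.90 (log2 -1.69, SE 0.231, edgeR adjusted p = 0.000624). Groups were apart at these 3 rows, and each call held without any 1 library.

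Further large falls lay over NPTX1, a neuronal pentraxin (lnc-NPTX1-6, log2 -2.21), LINC02223 on chromosome 5 (-1.72) and OXCT1, an enzyme of ketone body use (lnc-PLCXD3-2, -1.67), whose calls held without any 1 library. A row in an intron of the pseudogene SEC22B4P (ENSG00000287978.1, -1.71) lost its call without mock library 3. One opposite PABPC1, a poly(A)-binding protein (lnc-SPAG1-7, -1.69), lost it without A7 library 1 or 2 or mock library 2 or 3.

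The DROSHA, LINC02223 and OXCT1 rows lie in the first 50 Mb of chromosome 5, where 43 of the 141 falls were found. Rows outside the families were therefore grouped by chromosome in parts of 50 Mb. Of 68 parts with at least 20 rows, 62 had a median within 0.25 of 0, 2 above and 4 below. The 4 regions below were singled out after their values were seen, so their counts are a description. In the first 50 Mb of chromosome 5, 43 of 94 rows were lower and 0 higher, 89 lay below 0, and the median was -0.94. These rows summed to 605, 658 and 644 CPM in A7 and 1142, 1278 and 1247 in mock. A4 had 1048, 911 and 1110, E4 603, 599 and 615, and G8 547, 591 and 604, so A7, E4 and G8 lay at about the same level below A4 and mock.

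On chromosome 10, where the VIM row lies, 14 of 218 rows were lower and 0 higher. The median of the 218 was -0.48, with sums of 834, 887 and 822 CPM in A7 and 1140, 1146 and 1132 in mock. The sums of A4, E4 and G8 lay between 791 and 868 CPM. From 100 Mb onward on chromosome 12, where the CKAP4 row lies, 32 of 128 rows were higher and 0 lower. The median of the 128 was 0.76, with sums of 1480, 1536 and 1432 CPM against 1023, 1041 and 1050. E4 and G8 had 1255 to 1495 CPM, and A4 had 983, 2048 and 1046. On chromosome 21, where MIR155 lies, 5 of 102 rows were higher and 0 lower, with a median of 0.41 and sums of 638, 603 and 633 against 481, 493 and 466 CPM. E4 had 604 to 653, A4 454 to 569 and G8 401 to 423.

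In all 4 regions the 3 A7 libraries lay on 1 side of the 3 mock libraries. All other rows outside the families on the autosomes and X gave 67 rises and 84 falls among 7155, with a median of -0.02. Of 68 family features tested in the 4 regions, 7 were higher and 0 lower, so most family calls lie elsewhere. DNA copy number was not measured, and its part was not tested.

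**Figure D4:**
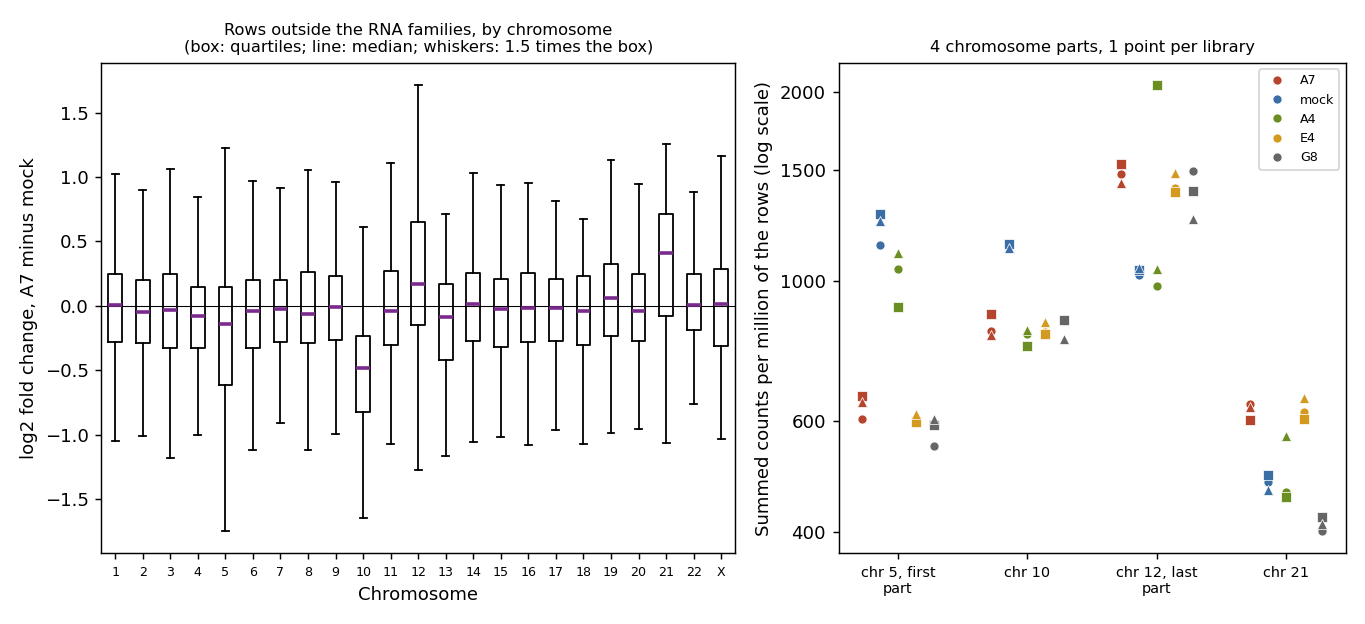
Left, log2 fold changes (A7 minus mock) of rows outside the RNA families by chromosome, as boxes of quartiles with the median. Right, summed CPM (log scale) of such rows in the 4 regions, 1 point per library of each group, where the A7 and mock points do not overlap in any region.

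Without PNK the same groups gave 0 calls among 1826 features (0% called, 202 at an unadjusted p under 0.05) by edgeR and 0 of 23 family sums. Medians without PNK were -0.50 for C/D snoRNA, 0.15 for miRNA and 0.26 for nuclear tRNA rows. The difference between the arms was tested in 1 model over the 12 libraries: 21 of 9222 features (0.228%) and 3 of 23 family sums passed, all with a larger value in A7 with PNK. The sums were C/D snoRNA, miRNA and Y RNA, each with an edgeR adjusted p of 0.0357.

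Set against the other THP-1 groups in the same fit, A7 was higher than A4 for 563 features (6.2%) and lower for 660 (7.27%). Against E4, 4 (0.0441%) were higher and 7 (0.0771%) lower. Against G8, 487 (5.37%) were higher and 242 (2.67%) lower. C/D snoRNA took 15.7% of counts on average in A7, 12.5% in A4, 15.7% in E4 and 8.44% in G8, against 7.88% in mock. Its sum did not pass against A4 (0.07), E4 (-0.08) or G8 (0.74). MicroRNA took 0.657% in A7, 0.431% in A4, 0.576% in E4 and 0.213% in G8, and A7 was above G8 by 1.63 (edgeR adjusted p = 0.00138). The miRNA sum did not pass against A4 (0.37, edgeR adjusted p = 0.277) or E4 (0.12, 0.898). These comparisons share the A7 libraries with the comparison with mock.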

How the data were processed

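The authors deposited whole-number counts of reads for each annotated row, without normalization. Per the submitters' processing notes, Trim Galore, FastQC, Bowtie2 2.3.5.1, SAMtools 1.9, deepTools 3.2.1, bedtools 2.28.0 and GRCh38 were used. How strand and multiple alignments were handled was read from the values. Of 175946 rows, 155223 carry only a long non-coding annotation. The test was edgeR 4.0.16 (R 4.3.3) by quasi-likelihood, with filterByExpr, TMM factors and a Benjamini-Hochberg threshold of 0.05, over all 15 libraries with PNK, which share 1 estimate of the spread. The features tested held at least 99.4% of counts per library. Family and anticodon sums were fitted in the same way, with p-values adjusted over the sums. Standard errors are the log2 fold change over the square root of F. On simulated counts for this comparison (9075 features) 30% of 2-fold and 84% of 4-fold changes were recovered. Alternatives were other scalings and filters, DESeq2 1.42.0, 6 libraries only, every row, a replicate block and leaving out each library. Named always were 14 polymerase III genes, then the 10 largest rises and falls of abundant features with separate groups, and the 2 most abundant called members per family; snoRNAs and miRNAs beyond these were chosen after their values were seen. The members and lists were chosen with earlier results of these data known. One of the 10 falls is not reported here.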

Additional observations from a re-analysis of the deposited data

Results flagged for a closer look

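The following 8 results differed between the arms with and without PNK by a test of the difference itself (edgeR, adjusted over all features or sums). Each value is the log2 difference of A7 and mock with PNK minus the same without it. The C/D snoRNA sum had 1.53 (SE 0.430), the miRNA sum 1.17 (SE 0.339) and the Y RNA sum 0.96 (SE 0.260), each with an adjusted p of 0.0357. For C/D snoRNA the difference between groups was 1.19 with PNK and -0.32 without it, for miRNA 1.36 and 0.21, and for Y RNA 0.64 and -0.30. None of the 3 passed with library totals (0.117, 0.296 and 0.380), nor without A7 library 1, mock library 2 or mock library 3 with PNK, nor without any 1 library of the arm without PNK.

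RNY5 had 2.24 (adjusted p = 0.0161) and the mir-720 row 2.48 (0.00565). Among tRNA rows, tRNA-Arg-TCT-5-2 on chromosome 9 had 3.04 (0.0315) and tRNA-Tyr-GTA-6-1 had 2.21 (0.0393). RF00019, the Y RNA copy on chromosome X, had 1.94 (0.0393).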

How the results depend on the processing

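The count of 462 became 285 with library totals, 2850 with miRNA factors and 3360 with every deposited row. The 313 rises became 120, 60 and 1985, and the 149 falls 2790 with miRNA factors and 1375 with every row; 255 and 201 of the 462 calls were kept with library totals and miRNA factors. Leaving out 1 library gave 146 to 386 calls, 88 to 283 rises and 56 to 103 falls, 0 to 6 family sums and 2 to 15 anticodon sums. With miRNA factors none of the 4 called family sums was kept and 1 other was called, U6 pseudogenes (-1.18, adjusted p = 0.0228), while the 18 anticodon sums fell to 6 with library totals and 0 with miRNA factors. Of the called sums, those reversed under miRNA factors were 7SK (-0.074), Arg-ACG (-0.34), Cys-GCA (-0.24), Gly-CCC (-0.070), Phe-GAA (-0.016) and Thr-AGT (-0.028). Among sums that were not called, 14 of 19 families and 19 of 30 anticodons also changed sign, nuclear tRNA, Y RNA and vault RNA included. The test between the arms gave 0 features and 0 sums with library totals, and 1 to 246 features and 0 to 4 sums when 1 library was left out. Against A4, E4 and G8, leaving out 1 library gave 640 to 939, 3 to 8 and 404 to 523 calls, and library totals 21 against E4. The cause of these changes was not tested.

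Libraries with the same number in A7 and mock had residual correlations of 0.144, 0.131 and 0.00821. A7 libraries 1 and 2 each correlated best with the mock library of the same number. A7 library 3 had 0.0109 with mock library 2, near its value with mock library 3. These values do not settle whether the numbers pair the libraries. A replicate block gave 424 calls in place of 462, and 127 features in place of 21 in the test between the arms. DESeq2's size factors gave 452 calls, DESeq2's test 478, no filter 539 and 6 libraries alone 501. The biological coefficient of variation was 24.1%, and 2-fold changes were recovered less often than 4-fold ones in simulation.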
